A study of Mus musculus with 18 samples.

Results

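Voltage-gated sodium channels are the membrane proteins that start and carry the action potential. The results below follow 9 genes of this family, picked by symbol from the 17198 genes of the deposited table: 7 that code for alpha-type, pore-forming proteins (Scn1a, Scn3a, Scn7a, Scn8a, Scn9a, Scn10a and Scn11a) and 2 that code for beta subunits (Scn3b and Scn4b). All 9 had a normalized count above 0 in every sample, as did all 17198 genes. RNA was sequenced from cultures of mouse DRG neurons, which are sensory neurons taken from the dorsal root ganglia along the spinal cord. Cultures were either wild type (WT) or heterozygous for the tm1a allele of Dynlrb1 (Dynlrb1(tm1a/+), HET below), a knockout-first insertion present throughout the animal beside 1 intact copy. RNA was collected at 12, 24 and 48 h in culture, with 3 biological repeats in each of the 6 groups, 18 samples in all. The age and sex of the mice, and whether a repeat was an animal, a pool or a separate culture, were not given in the sources used here, so every p-value measures the spread between these samples.

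An alpha subunit folds into 4 linked domains around a sodium-selective pore, and beta subunits attach to it and alter its gating and its place in the membrane. Sensory neurons are known for holding both kinds of alpha subunit at once: those blocked by the pufferfish poison tetrodotoxin (TTX) and those that resist it. Scn10a (Nav1.8) carries much of the action potential upstroke in pain-sensing neurons, and Scn11a (Nav1.9) gives a slow, persistent current near the resting potential; both resist TTX. Scn9a (Nav1.7), which amplifies small depolarisations and whose loss abolishes pain in people, is TTX-sensitive, as are Scn8a (Nav1.6, the channel of nodes of Ranvier), Scn1a (Nav1.1, known from larger mechanosensory neurons) and Scn3a (Nav1.3, an embryonic form that returns after nerve injury). Scn7a codes for Nax, a relative that responds to the sodium level rather than to voltage and is also made by Schwann cells. Scn3b and Scn4b code for beta3 and beta4, and the tail of beta4 is known for producing resurgent current.

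The coding sequence of the domain I pore loop is shown for 6 alpha-type members because it separates the TTX-resistant from the TTX-sensitive ones among them. Each line gives 45 coding bases from GENCODE M21 on mm10, 5′ to 3′ on the coding strand, with the codon aligned to the position known for TTX binding in capitals.
Scn10a, chr9:119666369-119666413, minus strand: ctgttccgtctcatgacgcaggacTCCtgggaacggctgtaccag
Scn11a, chr9:119805662-119805706, minus strand: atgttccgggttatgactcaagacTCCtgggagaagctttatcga
Scn9a, chr2:66548983-66549027, minus strand: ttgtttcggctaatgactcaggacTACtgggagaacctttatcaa
Scn8a, chr15:100971614-100971658, plus strand: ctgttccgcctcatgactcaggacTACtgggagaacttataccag
Scn3a, chr2:65521795-65521839, minus strand: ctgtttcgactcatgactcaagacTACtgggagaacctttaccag
Scn7a, chr2:66726157-66726201, minus strand: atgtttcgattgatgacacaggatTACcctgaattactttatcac
Scn10a and Scn11a share a serine codon there, and Scn9a, Scn8a, Scn3a and Scn7a carry a codon for tyrosine, an aromatic residue. Each stretch shown lies within a single coding exon. Scn10a and Scn11a are neighbours on chromosome 9, Scn3b and Scn4b lie elsewhere on chromosome 9, and Scn1a, Scn3a, Scn7a and Scn9a sit together on chromosome 2. Aligned over the whole translated sequence, Scn10a and Scn11a were 54.0% identical, less than the 85.1% of Scn1a and Scn3a. Long identical runs limit how reads can be assigned among the chromosome 2 genes: the coding sequences of Scn3a and Scn9a share an unbroken run of 184 bases, and those of Scn1a and Scn3a a run of 143. Of the distinct 50-base stretches in the Scn3a coding sequence, 7.01% were shared with Scn9a and 4.96% with Scn1a. How the authors assigned reads that fit several genes was not given in the sources used here, so the low values of Scn3a are uncertain. Scn9a also overlaps the antisense gene Gm13629 over 180 exon bases, and the use of strand was not stated.

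Dynlrb1, which codes for a light chain of the dynein motor, checked the genotype labels. Its normalized count was 5229 to 6674 over the 9 WT samples and 2716 to 4087 over the 9 HET samples, without overlap. All 13 pan-neuronal genes of a fixed list were measured, with a summed level of 5299 to 6880 FPKM (fragments scaled to gene length and library size). Genes of Schwann and satellite glia summed to 641 to 1464 FPKM (12 of 12 measured), of fibroblasts to 39.9 to 155, of endothelium to 27.4 to 76.7, of macrophages to 14.4 to 81.8, and of striated and cardiac muscle to 0.822 to 4.06 (4 of 6 measured). Raw counts were not used here, so sequencing depth is unknown. In bulk RNA, fewer cells of a type and less RNA per cell cannot be told apart.

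Compared per length, Scn10a was the most abundant member in all 6 groups and Scn3a the least. At 12 h in WT, Scn10a averaged 207 ± 42.3 FPKM (SD, n = 3, as for all SDs below), ahead of Scn11a at 124 ± 28.6, Scn9a at 107 ± 17.96, Scn7a at 89.0 ± 6.94 and Scn4b at 80.6 ± 12.5. Those last 4 followed each other with overlapping samples. Below a gap came Scn3b at 27.5 ± 2.20 FPKM. Next were Scn1a at 16.7 ± 2.66 and Scn8a at 16.6 ± 2.76, which could not be separated. Scn3a, at 1.07 ± 0.206 FPKM, was far under the rest. By 48 h in WT the order had altered: Scn10a at 85.8 ± 20.3 and Scn9a at 77.5 ± 7.92 FPKM overlapped at the top, and Scn11a at 32.9 ± 11.1 had a mean below those of Scn7a and Scn4b, with samples overlapping those of Scn4b. At 48 h in HET, Scn10a at 151 ± 31.2 FPKM lay above all samples of Scn9a at 93.0 ± 9.19. The Scn9a samples overlapped those of Scn11a, at 87.96 ± 39.5.

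**Figure D1:**
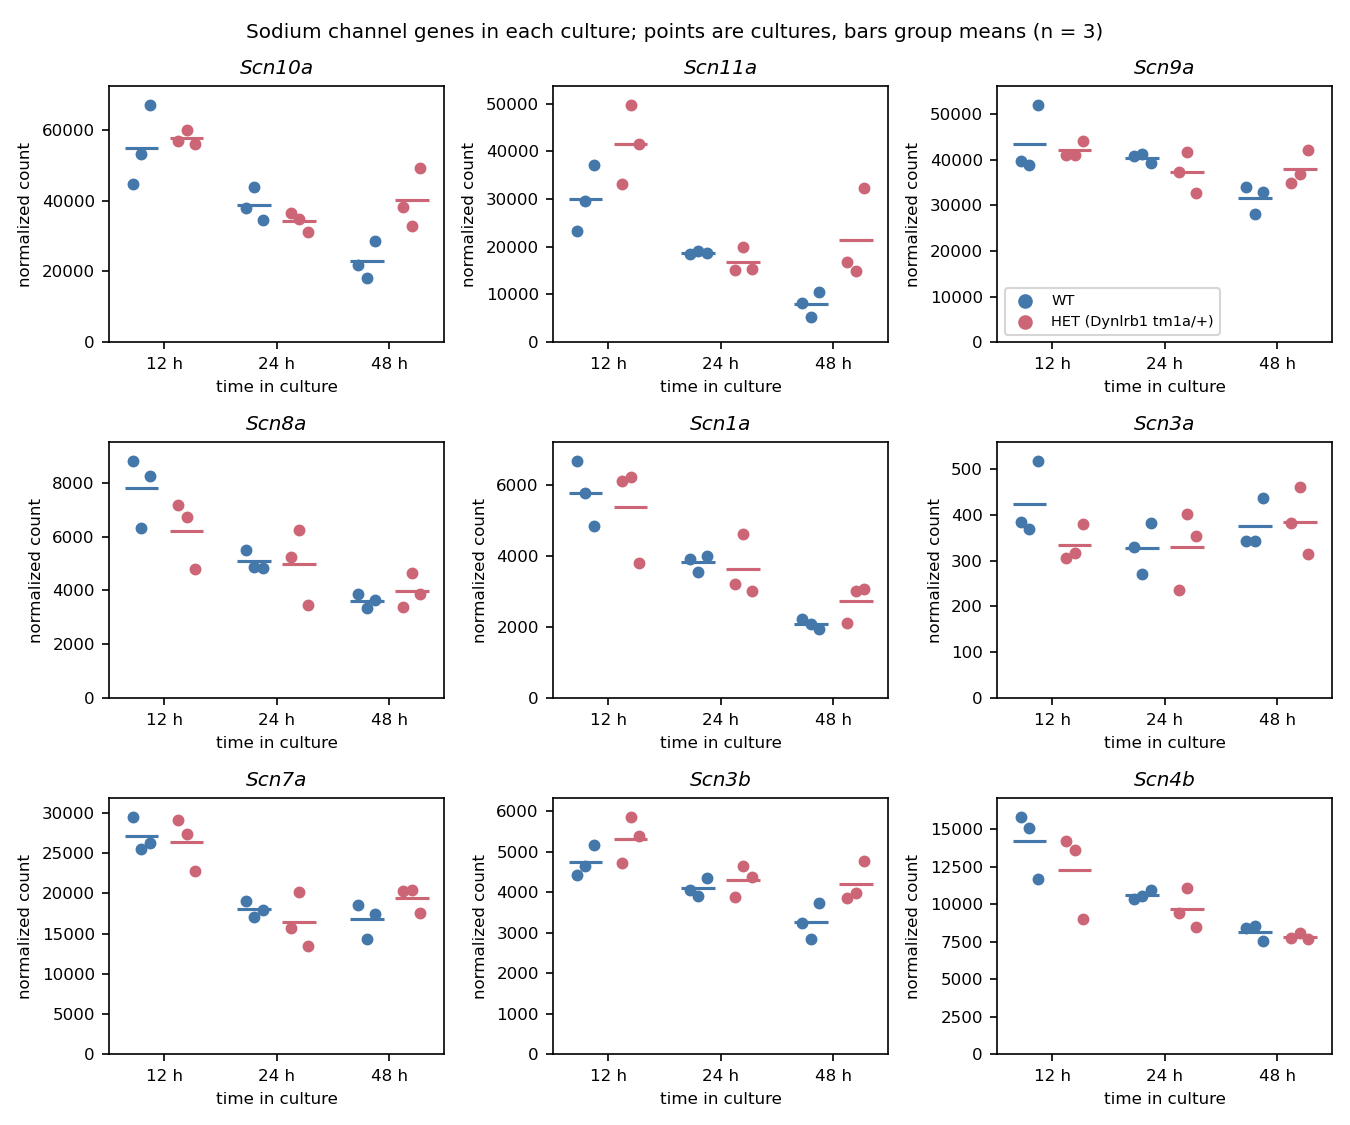
Normalized count (linear axis from 0) of each of the 9 genes by genotype and time in culture; each point is a sample and each bar the mean of 3. In WT (blue) the Scn10a and Scn11a samples of each later time lay below those of the time before, while in HET (red) the 48 h samples of both lay above every 48 h WT sample.

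The first comparison asks how the channel genes moved as WT neurons stayed in culture. From 12 to 48 h, 8 of the 9 genes fell, and each of the 8 had every 48 h sample below every 12 h sample. The TTX-resistant pair and Scn1a fell most: Scn11a kept 26.6% of its 12 h mean, Scn1a 36.3% and Scn10a 41.5%. Scn9a kept 72.7%. Scn3a was the member that did not pass, at 88.5%.

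Scn10a read 44849, 53261 and 67148 normalized counts in the 12 h WT samples and 21824, 18016 and 28673 in the 48 h ones. The log2 fold change of log2(normalized count + 1) was -1.28 (SE 0.17, limma adjusted p = 5.17e-05). Its 24 h samples, at 37889, 43851 and 34563, lay between the other times without touching either. Scn11a fell further. It read 23264, 29572 and 37091 at 12 h, a tight 18409, 19165 and 18626 at 24 h, and 8092, 5223 and 10588 at 48 h. The 48 h difference from 12 h was -1.94 (SE 0.27, limma adjusted p = 6.50e-05).

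Among the TTX-sensitive genes, Scn1a fell from 6666, 5753 and 4835 to 2232, 2078 and 1950 normalized counts, which is -1.45 in log2 (SE 0.19, limma adjusted p = 5.02e-05). Scn8a went from 8812, 6335 and 8246 to 3884, 3346 and 3642 (-1.09, SE 0.19, limma adjusted p = 3.12e-04). Both genes thus had tight 48 h samples well under the 12 h range. Scn9a, the most abundant TTX-sensitive gene, moved less, from 39678, 38960 and 52022 to 34096, 27994 and 32927 (-0.45, SE 0.12, limma adjusted p = 0.00498). Scn3a read 384, 369 and 518 at 12 h against 344, 344 and 438 at 48 h, overlapping groups with a difference of -0.17 (95% interval -0.60 to 0.27).

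Scn7a fell by 0.70 on the log2 scale (limma adjusted p = 5.71e-04), from 25560 to 29499 over the 12 h samples to 14358 to 18508 at 48 h. Among the beta subunits Scn4b fell by 0.79 (limma adjusted p = 4.98e-04) and Scn3b by 0.54 (limma adjusted p = 0.00123). These 8 of 9 compare with 17.1% of all genes lower by the same test, and the 8 non-overlapping members with 20.7% of all genes. The members' values stand against a median of 0.11 over all genes, which is 0.01 on the authors' plain adjusted columns. All genes split into 5152 higher and 2946 lower on the normalized columns and 4177 and 3760 on the plain ones. The 8 members fell on both, and in the authors' deposited table the same 8 had an adjusted p under 0.05, among 45.4% of all genes in either direction.

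**Figure D2:**
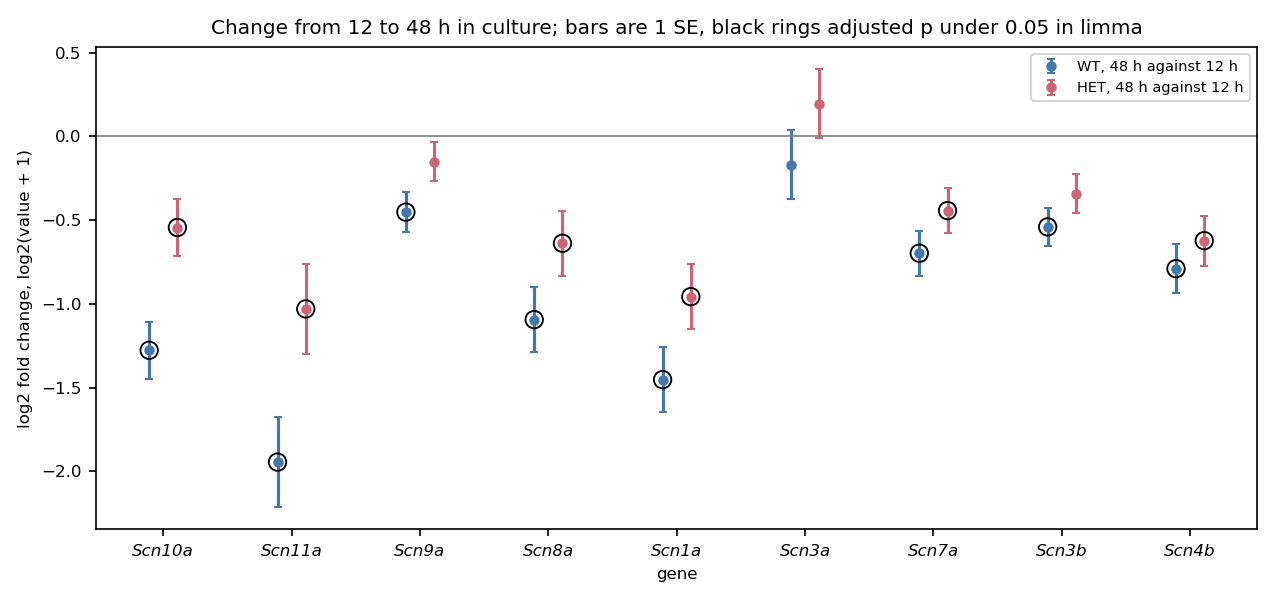
Log2 fold change from 12 to 48 h of each gene, in WT (blue) and HET (red), with bars of 1 SE; black rings mark an adjusted p under 0.05 in limma. The WT point lies below the HET point for each gene, from -1.94 against -1.03 for Scn11a to -0.79 against -0.62 for Scn4b, though no gene passed the test of the difference.

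At 24 h much of the WT fall was not yet resolved. All 9 genes had a lower mean than at 12 h and 7 were lower without overlap (8.94% of all genes), but only Scn7a passed, at -0.59 (SE 0.13, limma adjusted p = 0.0288), where 0.657% of all genes were lower. That call was lost when any of the 6 samples was left out. In those fits 0 to 197 of 17198 genes passed in either direction, beside 622 with all samples. Scn8a was -0.61 (limma adjusted p = 0.0830), Scn1a -0.58 (0.0946), Scn10a -0.49 (0.106) and Scn11a -0.65 (0.170), each p from limma. The authors' deposited table gave 3 members an adjusted p under 0.05 for this step, all of them lower, among 4.97% of all genes in either direction.

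In HET cultures, 3 genes passed as lower at 24 h: Scn11a at 40.3% of its 12 h mean, Scn10a at 59.3% and Scn7a at 62.1%. In WT they stood at 62.5%, 70.4% and 66.5%. The 12 to 24 h change was not tested between genotypes. Scn11a went from 33053, 49718 and 41614 normalized counts at 12 h to 15033, 19887 and 15237 (-1.30, SE 0.27, limma adjusted p = 0.00430). Scn10a went from 56870, 60060 and 56079 to 36527, 34936 and 31146 (-0.76, SE 0.17, limma adjusted p = 0.00706). These 3 of 9 compare with 5.76% of all genes lower, and 4 members were lower without overlap beside 13% of all genes. Without replicate 5 of the 12 h HET samples, 5 members passed, all lower, where 826 of 17198 genes were lower.

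In HET the 48 h means of Scn10a, Scn11a, Scn7a, Scn3a and Scn9a were above their 24 h means, and those of the other 4 members were below. Scn10a read 38117, 32972 and 49209 normalized counts at 48 h, 117% of its 24 h mean, and Scn11a 16764, 14839 and 32308, 127% of its 24 h mean. Replicate 3 was the highest for both, and the 24 and 48 h samples overlapped. Without that sample, a choice made after the data were seen, the 48 h mean was 94.5% of the 24 h mean for Scn11a and 104% for Scn10a. With all samples Scn7a stood at 118%, Scn3a at 117% and Scn9a at 102%. Without replicate 3 they stood at 124%, 127% and 96.4%. In WT the step from 24 to 48 h left 58.9% of Scn10a and 42.5% of Scn11a, with all samples. No test of 48 against 24 h was among the comparisons made.

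Set against 12 h, 6 of 9 genes fell by 48 h in HET, all without overlap: Scn11a (-1.03 in log2), Scn1a (-0.96), Scn8a (-0.64), Scn4b (-0.62), Scn10a (-0.54) and Scn7a (-0.44). Their limma adjusted p-values were 0.0235, 0.0127, 0.0381, 0.0175, 0.0441 and 0.0381 in that order. In all genes, 3.62% were lower by this test and 8.12% without overlap. Scn3b (-0.34, limma adjusted p = 0.0552), Scn9a (-0.15, 95% interval -0.40 to 0.10) and Scn3a (0.20, -0.24 to 0.63) did not pass. This count depended on single samples: no member passed without HET 12 h replicate 2, HET 48 h replicate 1 or HET 48 h replicate 2. No gene of the whole table passed in those fits either. Without HET 12 h replicate 1, 2 members passed, and 1123 of 17198 genes in either direction. The calls over all genes were 1820 higher and 622 lower on the normalized columns and 999 and 926 on the plain ones, where 7 members fell.

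The second comparison asks how HET cultures differed from WT at the same time. At 12 and 24 h, none of the 9 genes differed by limma, and none had an unadjusted p under 0.05, which 8.41% of all genes had at 12 h and 1.15% at 24 h. Among all genes 0.00581% were called at each of these times. No member separated the genotypes without overlap at either time, against 7.07% of genes higher and 8% lower at 12 h and 2.81% and 2.79% at 24 h. The widest gap at 12 h was that of Scn11a, 0.47 higher in HET with a 95% interval of -0.09 to 1.04. At 24 h all members but Scn3b had a lower mean log2 value in HET, with Scn10a at -0.18 (-0.54 to 0.19) and Scn11a at -0.18 (-0.74 to 0.39).

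At 48 h the TTX-resistant genes lay higher in HET, in every sample. HET means were 2.67 times those of WT for Scn11a, 1.76 times for Scn10a and 1.28 times for Scn3b. Scn9a, at 1.20 times, also did not overlap, which makes 4 members higher without overlap and none lower, beside 9.57% and 14.4% of all genes. Scn4b, at 0.96 times, and Scn3a, at 1.03 times, had means close together.

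In the test without pairing, no member and 0% of all genes passed at 48 h. Scn10a stood just over the threshold at 0.82 (SE 0.17, limma adjusted p = 0.0502) and so did Scn11a at 1.39 (SE 0.27, limma adjusted p = 0.0502). The unadjusted p was under 0.05 for 4 members, as for 22% of all genes: these, Scn3b (0.36, limma adjusted p = 0.0898) and Scn9a (0.26, limma adjusted p = 0.202). Same-numbered samples of the 2 genotypes deviated together at 48 h. That pairing was seen in these data and is not given by the labels, so the blocked p-values may be too small. With the replicate number as a block 3 members passed, all higher in HET, where 5.04% of all genes were higher and 7.29% lower. The blocked values were Scn11a 1.39 (SE 0.12, limma adjusted p = 3.23e-04), Scn10a 0.82 (SE 0.10, limma adjusted p = 0.00127) and Scn3b 0.36 (SE 0.09, limma adjusted p = 0.0199).

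Pair by pair, the HET sample held 1.75, 1.83 and 1.72 times the Scn10a of the WT sample with the same number. For Scn11a those ratios were 2.07, 2.84 and 3.05. For Scn3b, at 3860, 3981 and 4758 normalized counts in HET and 3250, 2840 and 3733 in WT, they were 1.19, 1.40 and 1.27. All 3 genes were higher in each pair, but any matching would give that, since their HET and WT samples did not overlap. The ratios are thus no added support. The sample numbered 3 was the highest of its genotype for each. In the authors' deposited table, Scn11a (log2 fold change 1.42, adjusted p = 7.53e-05) and Scn10a (0.81, adjusted p = 8.27e-04) were the members under 0.05, among 5.98% of all genes.

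Single samples moved the unpaired result at 48 h. With WT replicate 3 left out, 3 members passed, and with HET replicate 1 or 2 left out, 2 did. Over all 17198 genes 931, 736 and 513 passed in those fits in that order, in either direction. Without HET replicate 3, which had the highest Scn11a, the difference was 1.04 for Scn11a and 0.66 for Scn10a (limma adjusted p = 0.251 for both). Without WT replicate 2 it was 1.11 and 0.66 (limma adjusted p = 0.389 and 0.394). No gene of the whole table passed without HET replicate 3 or without WT replicate 2.

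For the other members at 48 h the intervals bound the difference. Scn9a was 0.26 (95% interval 0.02 to 0.51), Scn1a 0.37 (-0.04 to 0.78), Scn7a 0.22 (-0.07 to 0.50), Scn8a 0.12 (-0.28 to 0.53), Scn4b -0.06 (-0.37 to 0.25) and Scn3a 0.03 (-0.41 to 0.47), all as log2 HET over WT. The TTX-sensitive genes and the 2 TTX-resistant ones were not tested against each other.

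**Figure D3:**
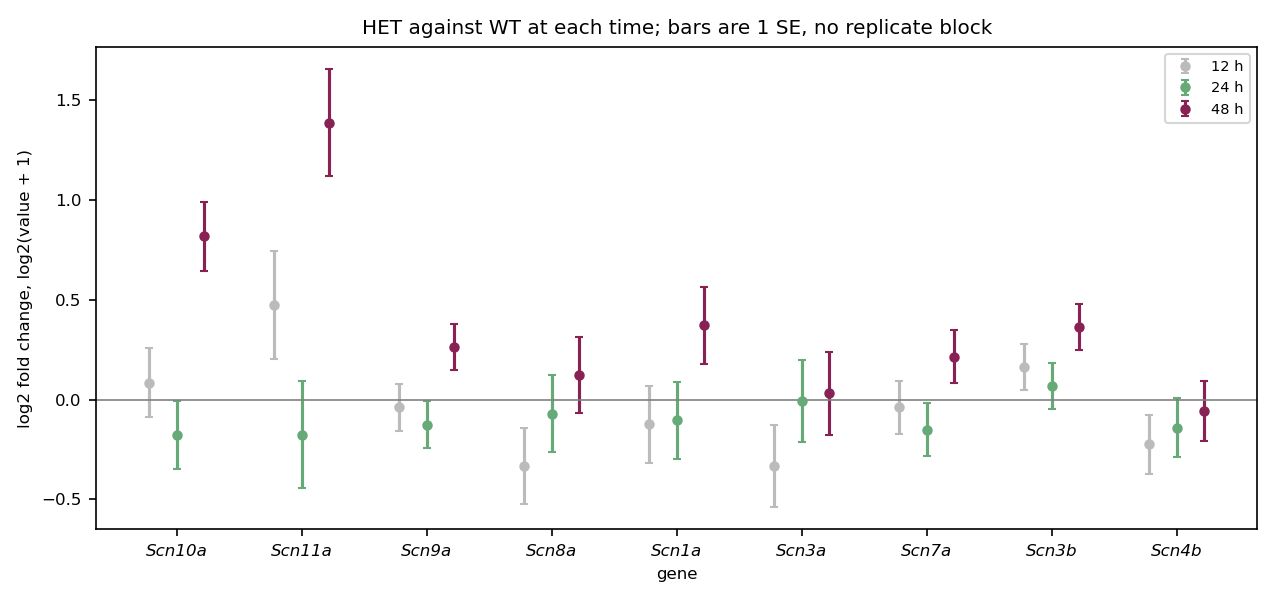
Log2 fold change of HET over WT at 12, 24 and 48 h (grey, green and purple) for each gene, with bars of 1 SE, from the fit without pairing. At 48 h Scn11a (1.39) and Scn10a (0.82) stand above the other 7 genes, while the 12 and 24 h points lie between -0.33 and 0.47.

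Averaged over the 3 times, no member passed (0.0174% of all genes did), and 3 had an unadjusted p under 0.05 (13.5% of all genes): Scn11a 0.56 (limma adjusted p = 0.310), Scn10a 0.24 (0.321) and Scn3b 0.20 (0.310). The question of whether the 12 to 48 h change differed between genotypes was tested directly. All 9 genes had a less negative or more positive change in HET, by 0.73 for Scn10a (SE 0.24) and 0.91 for Scn11a (SE 0.38), but no member and 0% of all genes passed (limma adjusted p = 0.548 for both). The unadjusted p was under 0.05 for those 2 genes and for 8.92% of all genes. These comparisons share samples, so they are not separate support for one another.

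The makeup of the alpha-type pool was read as each gene's share of the summed FPKM of the 7 alpha rows, which describes the same values again and was not tested. That sum was 561 ± 80.7 FPKM at 12 h, 404 ± 18.9 at 24 h and 266 ± 43.2 at 48 h in WT. In HET it was 607 ± 41.2, 364 ± 44.0 and 413 ± 73.6. The TTX-resistant pair made up 58.6% ± 4.81 of it at 12 h in WT, 55.1% ± 2.23 at 24 h and 44.2% ± 4.94 at 48 h. In HET the pair made up 63.8% ± 2.95, 54.3% ± 1.99 and 57.1% ± 6.51. At 48 h the WT samples, at 41.9, 40.8 and 49.8%, all lay under the HET samples, at 56.1, 51.1 and 64.0%. Scn9a took up a growing share in WT, from 19.0% ± 0.937 to 24.5% ± 0.554 and 29.4% ± 2.52. Its share in HET went from 17% ± 1.54 to 25.0% ± 0.168 and 22.7% ± 2.08.

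**Figure D4:**
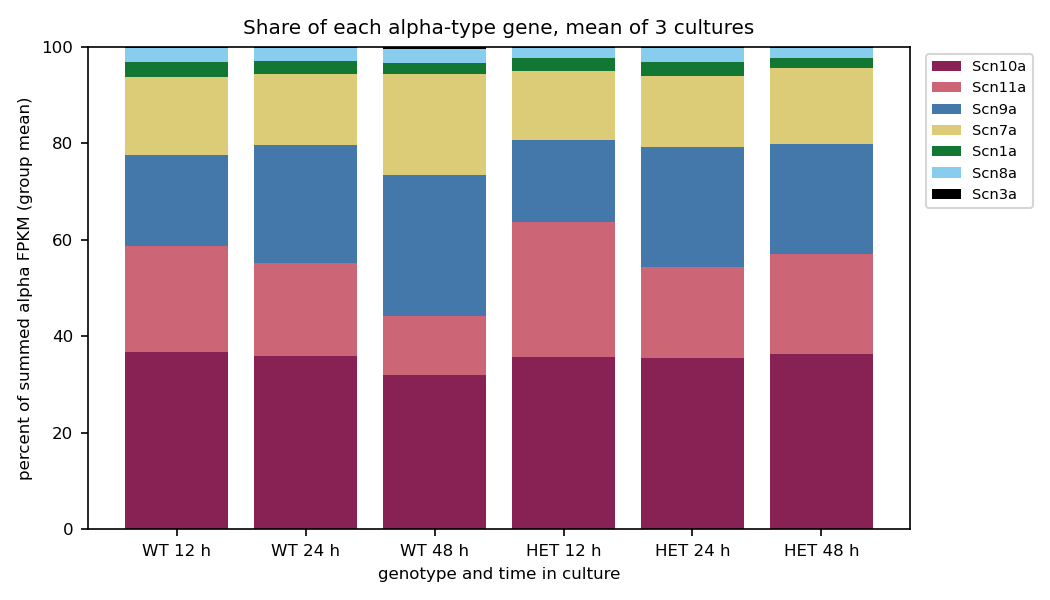
Mean share (percent, n = 3) of each gene in the summed FPKM of the 7 alpha-type genes, stacked to 100 for each group. The Scn10a and Scn11a segments together shrink from 58.6% to 44.2% between 12 and 48 h in WT and from 63.8% to 57.1% in HET.

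Over the 18 samples the members fell into sets that varied together, described here with no test since the samples share groups and times. Scn10a and Scn11a had a Pearson r of 0.97 on the log2 scale, and Scn11a and Scn3b 0.96. Scn1a went with Scn4b (0.93) and Scn8a (0.91). Scn3a stood alone, with r between -0.06 and 0.27 to the other 8. The non-member genes most like each member, out of 13592 with a mean of at least 50, were Kcnt1 (0.99) and Cd55 (0.99) for Scn11a and Apba1 (0.98) and Camk2a (0.98) for Scn10a. Kcnt1 codes for a sodium-activated potassium channel and Camk2a for a calcium-dependent kinase. For Scn3b they were Dpp10 (0.98), an auxiliary subunit of potassium channels, and Rgs10 (0.98), and for Scn9a Rc3h2 (0.96) and Zbtb44 (0.94). Scn1a was nearest to Frrs1l (0.99), an AMPA receptor assembly factor, and Sv2b (0.98), a synaptic vesicle protein. For Scn8a the nearest were Grid2ip (0.96) and Sema5a (0.96), for Scn4b Adam23 (0.97) and Rimkla (0.97), for Scn7a Tln2 (0.95) and Adam22 (0.95), and for Scn3a Il18bp (0.85) and Mprip (0.85).

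Of the other sodium channel subunits, all 6 listed were measured, among them Scn2b, Scn2a1, Scn4a and the leak channel Nalcn. From 12 to 48 h in WT 4 fell and 1 rose, where 17.1% of all genes were lower and 30% higher, and the list median was -0.81 beside 0.11 over all genes. Scn4a, the skeletal muscle channel, fell by 2.17 on the log2 scale, Scn2b fell by 1.24 and Nalcn fell by 1.13, while Scn2a1 (Nav1.2, the channel of central neurons) rose by 0.87. In HET 3 fell and 1 rose, where 3.62% of all genes were lower and 10.6% higher. At 48 h Scn2b (0.82), Nalcn (0.57) and Scn4a (0.96) were higher in HET with the replicate block (limma adjusted p = 0.00278, 0.0108 and 0.0207; 5.04% of all genes) and none was without it. The levels of Scn4a and Scn2a1 were low, at 1.39 ± 0.365 and 1.55 ± 0.409 FPKM in 12 h WT samples.

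A list of 21 genes whose products bind, anchor, move or degrade these channels was measured in full. From 12 to 48 h in WT 10 fell and 2 rose, with a median of -0.41, where 17.1% of all genes were lower and 30% higher. The widest falls were those of the kinase gene Camk2a (-2.46), of Fgf12 (-1.45) and Fgf13 (-1.32), whose products bind the channel tail, and of Pdzd2 (-1.05). In HET 4 fell (3.62% of all genes), among them Fgf12 (-0.96), the adhesion molecule Cntn1 (-0.76) and Dpysl2 (-0.30), whose product CRMP2 steers Nav1.7 to the surface. At 48 h 7 of the 21 were higher in HET with the replicate block and none lower, beside 5.04% and 7.29% of all genes, led by Camk2a (1.25), Fgf13 (0.95), Tmem233 (0.80) and Prkca (0.68). None passed without the block.

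Genes of other neuron and cell classes moved alongside. Of 10 nociceptor genes outside the channel family, 5 fell from 12 to 48 h in WT (17.1% of all genes), the widest falls being Mrgprd (-4.74), Tac1 (-1.67) and Trpa1 (-1.46), and their summed level went from 1551 to 1925 FPKM over the 12 h samples to 904 to 1166 at 48 h. In HET at 48 h the sum was 1128 to 1868, and 7 of the 10 were higher than in WT with the replicate block (5.04% of all genes), led by Mrgprd (3.05), Trpa1 (1.14), Tac1 (1.12) and Trpv1 (0.57); none passed without it. Mrgprd, a receptor of a class of non-peptidergic nociceptors, ranged from 618 to 6163 normalized counts over the 48 h HET samples. Of 10 genes of large-diameter neurons, 7 fell and 1 rose in WT, with sums of 891 to 1508 FPKM at 12 h and 721 to 1010 at 48 h; the shares over all genes were 17.1% lower and 30% higher. At 48 h 1 of those 10 was lower in HET with the block and none higher, beside 7.29% of all genes lower and 5.04% higher.

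Of the 13 pan-neuronal genes, 5 rose and 3 fell in WT, where 30% of all genes rose and 17.1% fell. Their median was 0.06, and the sum was 5328 to 6271 FPKM at 12 h and 6114 to 6738 at 48 h, next to 6282 to 6647 in HET at 48 h. Isl1 (1.83) and Elavl4 (1.47) rose most and Snap25 (-0.82) fell most. The 12 glial genes summed to 1068 to 1414 FPKM at 12 h and 641 to 685 at 48 h in WT. Their sum in HET at 48 h was 669 to 894. Of the 12, 5 fell and 2 rose in WT, beside the same shares over all genes. The macrophage sum at 48 h was 41.3 to 81.8 FPKM in WT and 24.4 to 37.3 in HET, without overlap. Among all genes taken singly, 14.4% were lower in HET without overlap at that time. Of the 6 macrophage genes none passed without the block, and 1 was lower in HET with it, beside 7.29% of all genes. The fibroblast sums at 48 h overlapped, at 107 to 154 and 87.4 to 155. The part of these cell classes in the sodium channel results was not tested.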

How the data were processed

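Each of the 18 samples has, in the 1 deposited table, normalized counts (unit: signal) whose totals the authors made equal across samples (seen from the values), FPKM, and plain adjusted signal, plus the authors' log2 fold changes and p-values for 7 contrasts. Per the submitters' processing notes, CASAVA 1.8.2, edgeR and the mm10 build were used; the aligner, counting rule, annotation and low-count filter were not given in the sources used here. The logs of the plain adjusted columns span 15 of 17 dimensions, so 2 directions had been removed by a step not given in the sources used here. Replicate number explained 48.4% of these directions and group 19.5%. The main limma fit made no allowance for them, so its p-values may be too small. Fits with them as covariates are among the alternatives.

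No column holds raw counts, so the planned count tests were not used. limma 3.58.1 (R 4.3.3, lmFit and eBayes with a mean-variance trend) was fitted to log2(normalized count + 1) of all 17198 genes, with 6 group means and 12 residual degrees of freedom. A mean of at least 1 removed 0 genes. P-values were adjusted by Benjamini-Hochberg over all genes in each of 9 comparisons (threshold 0.05). Fold changes are on that log2(value + 1) scale. The fit was tested on simulated data.

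Replicate numbers pair samples where every same-numbered pair of deviations from the group means has r over 0.1. That held for HET against WT at 48 h (r 0.21 to 0.46, 3 pairs), from the data and not from the labels, and not for the other comparisons. In the genotype comparisons the block was still fitted within every time, with 6 residual degrees of freedom. Coding sequences came from GENCODE M21 (mm10; all 9 Ensembl IDs matched), and translations were aligned with MAFFT 7.526. FPKM values imply 1 fixed length per gene. Genes named were the 9 members, the 2 genes most like each by Pearson r, and up to 4 genes past the threshold with the largest fold change per list and comparison. Some listed items are not reported here. The members and lists were chosen with earlier results of these data known. Alternatives tried are given in the closing section.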

Additional observations from a re-analysis of the deposited data

Results flagged for a closer look

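The mean difference between HET and WT in Scn10a changed side between times. It was 0.09 (log2) at 12 h and -0.18 at 24 h, a difference of -0.26, and it was 0.82 at 48 h, 1.0 above that at 24 h. Both are listed because every HET sample lay on 1 side of the WT mean at the first of the times compared and on the other side at the second. Neither of these differences between times was tested.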

How the results depend on the processing

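The fall of 8 members from 12 to 48 h in WT was called under every alternative run and with each sample left out, and no member was called for HET against WT at 12 or 24 h, or for the genotype difference in the 48 h against 12 h change, under any. For HET against WT at 48 h, 0 members became 2 with quantile normalization, 3 with the replicate block, 3 with the block and the 2 removed directions, and 0 to 3 with samples left out. For the average over times, 0 became 2 with the block and 1 with the block and removed directions. For 24 h against 12 h in WT, 1 became 4 with only the samples compared, 5 with the block, 2 with the block and removed directions, and 0 with no mean-variance trend or with any sample left out (0 to 0). For 24 h against 12 h in HET, 3 became 4 with quantile normalization or the removed directions, and 5 on the plain columns. The count was 6 with the block, 5 with the block and removed directions, and 3 to 5 with samples left out. For 48 h against 12 h in HET, 6 became 0 with only the samples compared, where no gene of the whole table passed. The count was 3 with no trend, 4 with quantile normalization, 5 with the removed directions, and 0 to 6 with samples left out. It was 7 on the plain columns, with the block, and with the block and removed directions. The cause of these shifts was not tested. The replicate numbers share only a label in the time comparisons and at 12 and 24 h, where the block moved the calls over all genes from 622 to 1218 (24 h against 12 h, WT), 2442 to 5099 (48 h against 12 h, HET), 3 to 553 (average) and 1 to 17 (12 h), while at 48 h quantile normalization moved them from 0 to 276 and the block to 2120; r between same-numbered samples was -0.21 to 0.36 in the comparisons other than that at 48 h.

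Values that changed sign were at most 0.17 in size as reported and at most 0.26 under the alternatives, and none was called. With quantile normalization they were Scn10a at 12 h (-0.0028), and Scn9a (-0.036) and Scn7a (-0.013) on average. With the removed directions they were Scn3a at 24 h (0.077), Scn3a at 48 h (-0.039) and Scn7a on average (-0.0048), and with the block added 0.26, -0.13 and -0.0071. With samples left out the ranges were, for HET against WT at 12 h, Scn10a -0.053 to 0.24, Scn9a -0.11 to 0.096, Scn7a -0.11 to 0.064 and Scn1a -0.25 to 0.11. At 24 h they were Scn8a -0.26 to 0.17, Scn1a -0.30 to 0.012 and Scn3a -0.16 to 0.22, and at 48 h Scn3a -0.10 to 0.17. On average they were Scn7a -0.044 to 0.052 and Scn1a -0.016 to 0.13. From 12 to 24 h they were Scn9a in WT -0.17 to 0.042 and Scn3a in HET -0.20 to 0.18, and for the genotype difference in the change Scn4b -0.044 to 0.30. A filter at a mean of 5, no filter and a pseudocount of 0.1 moved no count of members. The fit on only the samples compared was not run for the average, which uses all 18 samples. Depth is unknown, so what counting error limits cannot be given.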
